A study of Homo sapiens with 6 samples.

Results

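The miR-30 family was followed in whole MIO-M1 cells and in the extracellular vesicles (EV) that these cells release. Its members were chosen by name, as the mature microRNAs of miR-30a to miR-30e in a fixed list of 10. The rule uses names and no measured value, but it was set with earlier results of these data known. Of the 2576 mature miRNAs in the tables, 10 were members. The 5p arms are hsa-miR-30a-5p, hsa-miR-30b-5p, hsa-miR-30c-5p, hsa-miR-30d-5p and hsa-miR-30e-5p, and the 3p arms are hsa-miR-30a-3p, hsa-miR-30c-1-3p, hsa-miR-30c-2-3p, hsa-miR-30d-3p and hsa-miR-30e-3p, written here without the species prefix where values follow. The tables hold 11 such arms. miR-30b-3p was not on the list, and its counts were 1, 52 and 12 in the whole cell libraries and 0 in each of the EV libraries.

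MIO-M1 is an established human Müller glial cell line, labelled WT, and all libraries come from that 1 line. Whole cell RNA was taken at passages 22, 24 and 26 and RNA of secreted EV at passages 23, 25 and 27, called replicates 1, 2 and 3 of each group. Cells were grown in DMEM with 10% FCS. By the labels EV were collected from serum-free medium, conditioned for 24 h after 5 washes. The methods instead give vesicle-depleted medium, conditioned for 48 h after 3 washes. EV were isolated by sequential centrifugation, and the methods describe RNase A treatment of intact EV before RNA isolation and no such step for the cell pellets. Different kits were used for RNA of cells and of EV, so fraction, RNase step and kit cannot be told apart.

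A miRNA is cut from a hairpin precursor whose 2 arms, 5p and 3p, can each give a mature strand. The strand that is loaded into an Argonaute protein pairs with messenger RNAs mainly through its seed, bases 2 to 8, and lowers their translation or stability. Members of the miR-30 family share the seed of the 5p arm, and the family is known for restraining epithelial-mesenchymal transition and fibrosis and for roles in autophagy and in kidney podocytes.

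Mature sequences in the RefSeq table (GRCh38.p14) matched 7 of the 10 members, and miR-30b-5p, miR-30d-5p and miR-30d-3p had no entry. The sequences are shown because the members are told apart outside the seed by few bases. In addition, the 3p arms with an entry fall into groups by seed. Capitals mark the seed. The 5p arms with an entry share the seed GUAAACA, which 3 mature miRNAs of the table carry, all of them of this family.
miR-30a-5p: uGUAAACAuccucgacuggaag
miR-30c-5p: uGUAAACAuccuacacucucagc
miR-30e-5p: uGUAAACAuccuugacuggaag

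Among the miRNAs with an entry, the 3p arms of miR-30a and miR-30e share the seed UUUCAGU with each other alone. miR-30d-3p has no entry, so its seed was not compared. Both 3p arms of miR-30c share the seed UGGGAGA, also found in miR-6788-5p, which did not reach the level needed for testing.
miR-30a-3p: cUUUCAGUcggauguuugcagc
miR-30e-3p: cUUUCAGUcggauguuuacagc
miR-30c-1-3p: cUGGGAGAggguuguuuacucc
miR-30c-2-3p: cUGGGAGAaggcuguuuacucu

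Counted from 1 at the 5′ end, miR-30a-5p and miR-30e-5p differ by 1 substitution, C13U, and miR-30a-3p and miR-30e-3p by 1 substitution, G18A. The 3p arms of miR-30c differ at G9A, U12C and C22U. miR-30a-5p and miR-30c-5p have 17 identical bases over 22 aligned. Reads that carry an error or an edited base at such a position could be assigned to the near-identical member, and the number of mismatches that the aligner allowed is not given in the sources used here, so the split between miR-30a and miR-30e carries that uncertainty.

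By the RefSeq coordinates on GRCh38.p14, miR-30e-5p lies at chr1:40754371-40754392 and miR-30e-3p at chr1:40754413-40754434, both on the plus strand. On the same strand, miR-30c-1-3p lies at chr1:40757339-40757360. miR-30a-5p lies at chr6:71403595-71403616 and miR-30a-3p at chr6:71403554-71403575, on the minus strand, with miR-30c-2-3p at chr6:71376964-71376985. miR-30c-5p has 2 sources of identical sequence, chr1:40757300-40757322 and chr6:71377003-71377025, and its count cannot be divided between them. In the GENCODE 29 annotation MIR30E and MIR30C1 lie in introns of NFYC, which encodes a subunit of the transcription factor NF-Y, with 2837 bases between them. MIR30A and MIR30C2 lie in introns of the long non-coding RNAs LINC00472 and AL136164.2, with 26519 bases between them. The precursors MIR30B and MIR30D have 4268 bases between them and no annotated host gene.

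The deposited values are raw counts per mature miRNA, with library totals from 396025 to 3990900, and CPM, the share of a library's total in parts per 1e+06, was computed on them. All 10 members passed the filter on low counts, which asked for 5 CPM or more in no fewer than 3 libraries and kept 430 miRNAs. A CPM is a share of the miRNA counts of a library, so a rise of a miRNA and a fall of the others cannot be told apart. It does not give the amount of a miRNA in each vesicle or cell. Whole cell replicate 1 stood apart from the other whole cell libraries. It had the lowest total of the 6 libraries, and its log2(CPM + 4) differed from the mean of whole cell replicates 2 and 3 by a median of 1.08 in absolute size over the members and of 0.74 over all tested miRNAs. The same median between whole cell replicates 2 and 3 was 0.17 over the members and 0.25 over all tested. For this reason results that rest on whole cell replicate 1 are given with and without it. Of 5 miRNAs listed for Müller glia all were present in every library, with summed levels from 165343 to 186284 CPM in whole cells and from 76851 to 142104 CPM in EV. Their log2 fold changes went both ways, at 1.06 for miR-9-5p, 1.03 for miR-100-5p, -0.86 for miR-125a-5p, -1.19 for miR-125b-5p and -1.90 for miR-204-5p. Only miR-204-5p was called, against 14% of all tested miRNAs called lower. The paper's own list of Müller glia miRNAs from rodents includes miR-30d-5p and does not include miR-204-5p. The summed level of 6 blood and serum miRNAs, which serum left in a culture could also bring, ran from 172 to 1173 CPM in whole cells and from 1718 to 2318 CPM in EV. Of 4 tested, 3 were called higher in EV, against 14.7% of all tested miRNAs. The red cell miRNA miR-451a was at 0 in all 3 whole cell libraries and miR-144-3p at 0 in all but EV replicate 2. In contrast, miR-486-5p of the same list had counts of 65, 3493 and 1454 in whole cells and 1491, 3489 and 3751 in EV. These were the highest counts of the list in every library. miR-486-5p was the tested member that edgeR did not call (adjusted p = 0.487), and its fitted log2 change was 0.78. The part of such miRNAs in the miR-30 values was not tested.

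The 5 miR-30 5p arms together took 2.25%, 3.23% and 3.36% of the counts in whole cells, in the order of the replicates, and 2.40%, 3.40% and 1.71% in EV. The means were 2.95% ± 0.606 (SD, n = 3) for cells against 2.504% ± 0.849 (SD, n = 3) for EV, and the groups overlapped. The 3p arms took 0.158%, 0.12997% and 0.143% of the counts in whole cells and 0.208%, 0.209% and 0.155% in EV. Their means were 0.144% ± 0.0141 (SD, n = 3) and 0.191% ± 0.0312 (SD, n = 3), and EV replicate 3 lay within the range of the whole cells. The ratio of 5p to 3p counts of the family was 14.2, 24.9 and 23.5 in whole cells and 11.5, 16.3 and 11.1 in EV. The family was thus carried mostly by its 5p arms in each library, and its total share did not separate the fractions.

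**Figure D1:**
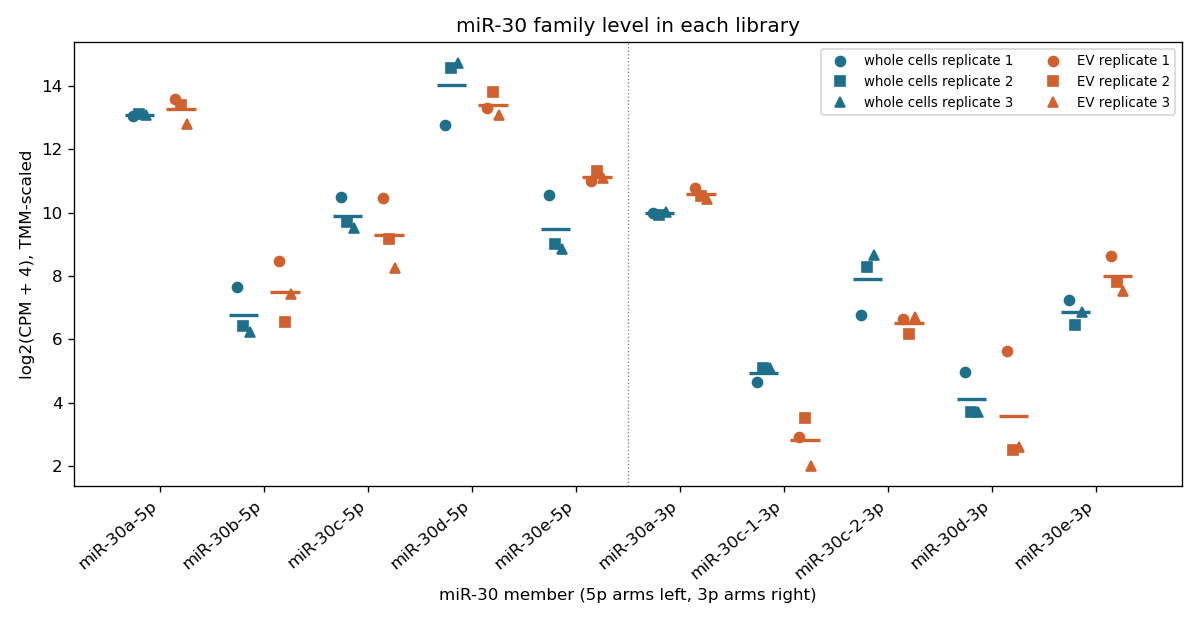
Level of each miR-30 member as log2(CPM + 4) on TMM-scaled counts. Points are libraries, whole cells in blue and EV in orange, lines are group means of 3 libraries, and the dotted line parts 5p from 3p arms. The EV points lie above the whole cell points for miR-30e-5p, miR-30a-3p and miR-30e-3p and below them for miR-30c-1-3p and miR-30c-2-3p.

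The members spanned a wide range of levels. Those with a sequence at hand are 22 or 23 bases long. How evenly the libraries captured different sequences was not tested, so comparisons between members are of counts and not of amounts. On the mean log2(CPM + 4) scale of the plot of members by library, miR-30d-5p led among the members of whole cells with 14.03 ± 1.08 (SD, n = 3), ahead of miR-30a-5p with 13.096 ± 0.04, and the libraries of this pair overlapped. A gap separated them from miR-30a-3p at 9.98, miR-30c-5p at 9.91 and miR-30e-5p at 9.48, neighbours that overlapped. Below them came miR-30c-2-3p at 7.90, miR-30e-3p at 6.85 and miR-30b-5p at 6.77, and at the bottom miR-30c-1-3p at 4.95 and miR-30d-3p at 4.12. Within each of these steps neighbours overlapped, and between the steps they did not.

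In EV the order kept miR-30d-5p at 13.41 ± 0.37 (SD, n = 3) and miR-30a-5p at 13.28 ± 0.42 as an overlapping pair at the top. miR-30e-5p came next at 11.13 ± 0.18, apart from its neighbours on both sides. The next 5 members, from miR-30a-3p at 10.58 down to miR-30c-2-3p at 6.51, formed a run of overlapping neighbours with miR-30c-5p at 9.30, miR-30e-3p at 7.996 and miR-30b-5p at 7.48. miR-30d-3p at 3.58 and miR-30c-1-3p at 2.81 were again lowest.

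The members were compared between EV and whole cells to ask whether the vesicles carry them in another proportion than the cells. None of the 10 members was called different by edgeR's quasi-likelihood test at a Benjamini-Hochberg adjusted p below 0.05, with 0 higher and 0 lower, while 28.6% of all 430 tested miRNAs were called, 14.7% higher and 14% lower in EV. At an unadjusted p below 0.05 edgeR gave 2 members, miR-30c-2-3p and miR-30e-5p, against 35.8% of all tested. DESeq2 called 1 member, miR-30c-2-3p, which was lower in EV. Of the 420 miRNAs to which it gave an unadjusted p, it called 35.5% at the adjusted threshold, and 20.2% lower in EV. The study states stricter limits for its list, a log2 change of 2.5 or more in either direction with an adjusted p under 0.01. Its printed list also holds miRNAs with smaller changes. Under the stated limits no member was called by either tool, against 5.81% of all tested in edgeR and 17.1% in DESeq2. Without whole cell replicate 1 edgeR called 3 members, miR-30e-5p higher and miR-30d-5p and miR-30c-2-3p lower, against 28.4% of all tested, and the median log2 fold change over all tested was then -0.45.

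The fitted log2 fold changes, EV minus whole cells, ran from -2.87 to 1.45 over the members, with 6 above 0 and 4 below. Their median was 0.18, beside -0.23 over all tested. The medians of the arms, 0.22 over the 5p and 0.14 over the 3p arms, are the values of miR-30a-5p and miR-30d-3p, whose signs were not stable. With DESeq2's size factors in edgeR (RLE) the median over all tested moved by -0.18, to -0.41, 4 members lay above 0, and the medians were -0.0072 over the 5p and -0.18 over the 3p arms. Without EV replicate 1 they were -0.032 and -1.80, and the median over all members was -0.44, so the family as a whole had no stable direction. Set against the median of all tested, 6 members lay above it under both scalings. The groups did not overlap on the log2 scale for 5 members, 3 with EV above and 2 with EV below, while 48.4% of all tested miRNAs had groups that did not overlap, 20.9% with EV above and 27.4% with EV below.

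**Figure D2:**
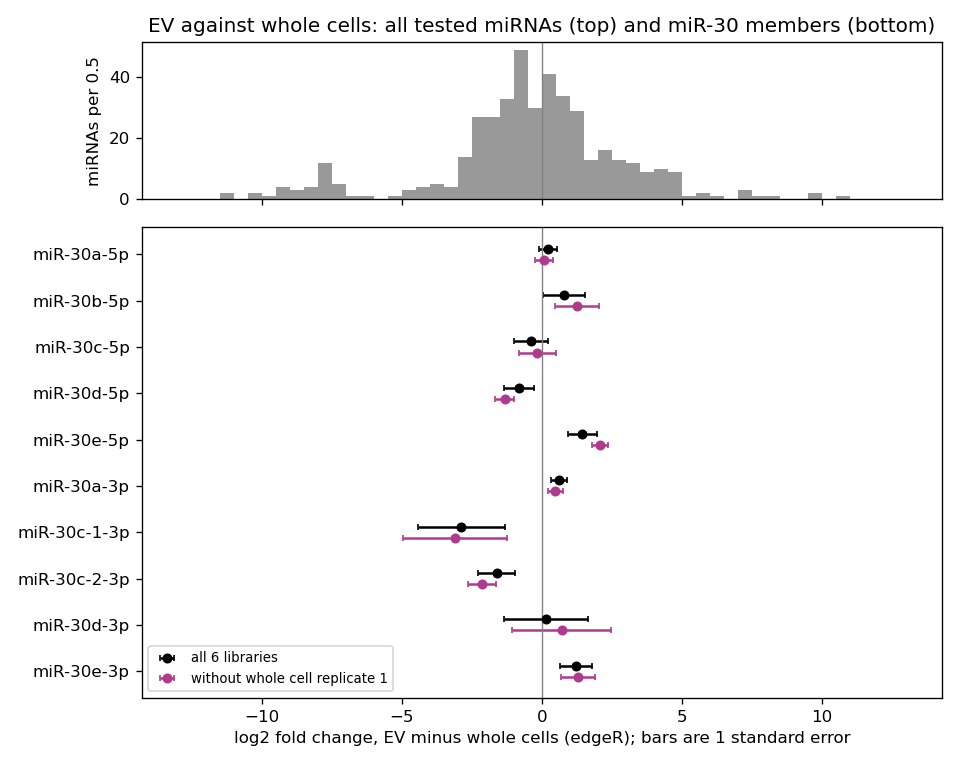
The histogram counts the log2 fold changes of the 430 tested miRNAs in steps of 0.5, and below it each miR-30 member is shown with its standard error, in black from all 6 libraries and in purple without whole cell replicate 1. From all 6 libraries the members lie between -2.87, for miR-30c-1-3p, and 1.45, for miR-30e-5p. miR-30c-1-3p ranks 375 of the 430 from the highest change. Without whole cell replicate 1 miR-30e-5p moves from 1.45 to 2.08, miR-30d-5p from -0.81 to -1.32 and miR-30c-2-3p from -1.62 to -2.14.

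Of the 5p arms, which carry the shared seed, miR-30a-5p and miR-30d-5p held most counts. miR-30a-5p stood at 10257, 8369 and 7860 CPM in the whole cell libraries, by replicate, and at 11265, 13026 and 6593 CPM in the EV libraries. The groups overlapped, with EV replicate 3 lowest of the 6 libraries. Its log2 fold change was 0.22 (SE 0.31, edgeR adjusted p = 0.666), and with RLE scaling it was -0.0072, so that its sign depended on the scaling. It ranked between 14 and 26 among the miRNAs of each library. On the TMM-scaled log2 scale its SD was 0.04 in whole cells, the smallest of the members.

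miR-30d-5p stood at 8487, 22599 and 24635 CPM in whole cells and at 9268, 17154 and 8114 CPM in EV. Whole cell replicate 1 was below EV replicates 1 and 2, while whole cell replicates 2 and 3 were above every EV library. The exact 95% binomial interval of whole cell replicate 1 ran from 8203 to 8777 CPM, far from the values of its fellow replicates. The cause of the gap was not tested. miR-30d-5p ranked 29 in whole cell replicate 1 and 10 in whole cell replicates 2 and 3. The log2 fold change was -0.81 (SE 0.52, edgeR adjusted p = 0.324), and without whole cell replicate 1 it was -1.32 with an edgeR adjusted p = 0.0375. Without whole cell replicates 2 and 3 in turn it was -0.63 and -0.59 (edgeR adjusted p = 0.625 and 0.624). Without EV replicates 1, 2 and 3 in turn it was -0.84, -1.14 and -0.75 (edgeR adjusted p = 0.405, 0.212 and 0.418).

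miR-30e-5p, which differs from miR-30a-5p at the 1 base given above, stood at 1800, 482 and 414 CPM in whole cells and at 1836, 3054 and 2000 CPM in EV. The EV libraries were all above the whole cell libraries, but EV replicate 1 exceeded whole cell replicate 1 only from 1800 to 1836 CPM, and their binomial intervals, 1671 to 1937 and 1761 to 1913 CPM, overlapped. The log2 fold change was 1.45 (SE 0.51), the highest of the members, with an unadjusted p = 0.0231 and an edgeR adjusted p = 0.0735. Without whole cell replicate 1 it was 2.08 with an edgeR adjusted p = 0.0111. Without whole cell replicates 2 and 3 in turn it was 1.20 and 1.08 (edgeR adjusted p = 0.244 and 0.261). Without EV replicates 1, 2 and 3 in turn it was 1.45, 1.15 and 1.42 (edgeR adjusted p = 0.123, 0.271 and 0.116).

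miR-30c-5p, the 5p arm made from 2 loci, stood at 1742, 780 and 652 CPM in whole cells and at 1283, 674 and 279 CPM in EV. Replicate 1 was highest in both groups and the groups overlapped. Its log2 fold change was -0.40 (SE 0.61, edgeR adjusted p = 0.694). Leaving out EV replicate 1 gave -1.27 and EV replicate 3 gave -0.12, and leaving out whole cell replicates 1 and 3 gave -0.17 and -0.69.

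miR-30b-5p was the least abundant 5p arm, at 237, 76.4 and 63.9 CPM in whole cells and 321, 105 and 155 CPM in EV. Here too replicate 1 was highest in both groups, and the log2 fold change was 0.81 (SE 0.75, edgeR adjusted p = 0.504). It was 0.031 without EV replicate 1 and 1.26 and 0.43 without whole cell replicates 1 and 3, so it rests on single libraries. The 5p arms thus had fold changes of both signs, with standard errors from 0.31 to 0.75.

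The levels above set the mixture of 5p arms, which does not depend on the rest of the library. miR-30d-5p made up 37.7%, 70.0% and 73.3% of the 5p arm counts in the whole cell libraries and 38.7%, 50.4% and 47.3% in the EV libraries. miR-30a-5p made up 45.5%, 25.9% and 23.4% in whole cells and 47.0%, 38.3% and 38.5% in EV. miR-30e-5p made up 7.99%, 1.49% and 1.23% in whole cells and 7.66%, 8.98% and 11.7% in EV. In whole cell replicate 1 the mixture was thus near that of EV replicate 1, and only whole cell replicates 2 and 3 were dominated by miR-30d-5p.

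**Figure D3:**
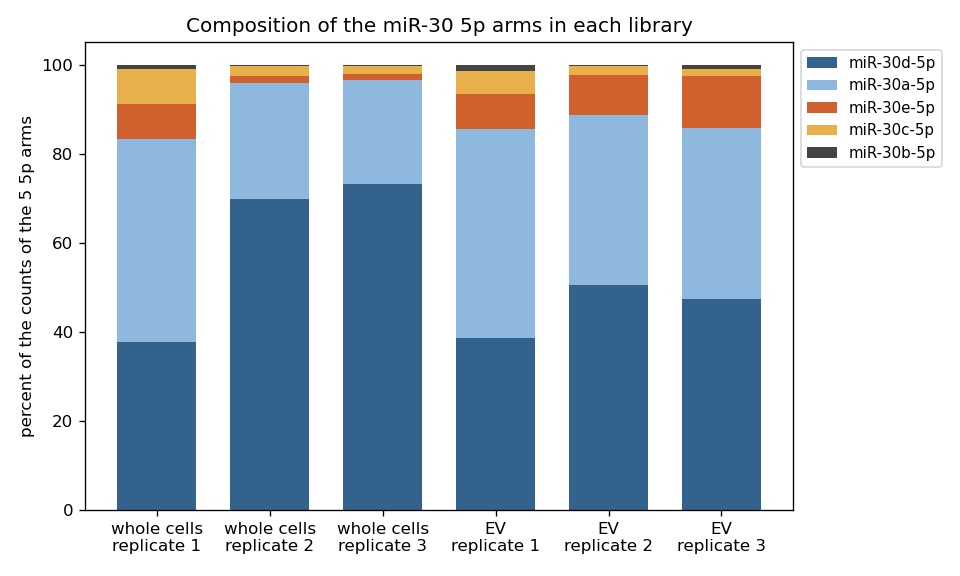
Stacked bars give the percent of the counts of the 5 miR-30 5p arms that each arm holds, 1 bar per library. miR-30d-5p fills 70.0% and 73.3% of whole cell replicates 2 and 3 and between 37.7% and 50.4% of the other 4 libraries, where the miR-30e-5p band is wider.

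The part of the mixture that would have to be moved to turn 1 library into another was 2.72 percentage points between whole cell replicate 1 and EV replicate 1. It was 3.31 points between whole cell replicates 2 and 3, and 32.3 and 35.6 points between these and whole cell replicate 1. Over the group means miR-30d-5p took 60.3% ± 19.7 (SD, n = 3) for cells and 45.5% ± 6.10 for EV, and miR-30e-5p 3.57% ± 3.83 and 9.44% ± 2.04. Without whole cell replicate 1 the whole cell means were 71.6% and 1.36%, and the difference, EV minus whole cells, went from -14.8 to -26.1 percentage points for miR-30d-5p and from 5.86 to 8.07 for miR-30e-5p. The count ratio of miR-30d-5p to miR-30e-5p showed the same grouping of libraries, at 4.71, 46.9 and 59.6 in whole cells and at 5.05, 5.62 and 4.06 in EV. No test was run on these shares, and whether the library total of whole cell replicate 1 plays a part in its mixture was not tested.

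Among the 3p arms, those of miR-30a and miR-30e, with the seed UUUCAGU, had higher mean levels in EV. miR-30a-3p stood at 1220, 900 and 935 CPM in whole cells and at 1595, 1736 and 1284 CPM in EV, and the lowest EV library exceeded the highest whole cell library. Its log2 fold change was 0.61 (SE 0.29), and the edgeR adjusted p, 0.182, missed the threshold. With RLE scaling it was 0.38. When a trend on GC content was removed in each library, in a fit of the 390 miRNAs with a sequence of which 25.9% were called, it was 1.23 with an edgeR adjusted p = 0.0147, where the median over these miRNAs was 0.15. miR-30e-3p stood at 177, 78.4 and 100.6 CPM in whole cells and at 356, 263 and 168 CPM in EV. On the TMM-scaled log2 scale EV lay above whole cells throughout, whereas on CPM of the totals EV replicate 3 fell below whole cell replicate 1. Its log2 fold change was 1.22 (SE 0.57, edgeR adjusted p = 0.177), and without EV replicate 1 it was 0.74.

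Both 3p arms of miR-30c, with the seed UGGGAGA, had lower mean levels in EV. miR-30c-2-3p stood at 126, 285 and 359 CPM in whole cells and at 87.3, 80.0 and 93.2 CPM in EV, with the 3 EV libraries below all whole cell libraries. Its log2 fold change was -1.62 (SE 0.66, unadjusted p = 0.0415, edgeR adjusted p = 0.121). In DESeq2 it fell by 1.78 on the log2 scale with an adjusted p = 0.0126, and in edgeR without whole cell replicate 1 by 2.14 with an adjusted p = 0.0279. Without whole cell replicates 2 and 3 in turn it was -1.52 and -1.34 (edgeR adjusted p = 0.385 and 0.396). With the GC trend removed it was -0.91 (edgeR adjusted p = 0.333), where the median over the miRNAs of that fit was 0.15. miR-30c-1-3p rested on few counts, 10, 113 and 34 in whole cells and 4, 18 and 0 in EV, which are 25.3, 28.3 and 27.2 CPM and 3.26, 8.83 and 0 CPM. The 0 in EV replicate 3 allows up to 0.957 CPM, taking 3 counts as the limit. The groups did not overlap, and the log2 fold change of -2.87 had the largest standard error of the members, 1.55 (edgeR adjusted p = 0.241).

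miR-30d-3p, the minor arm of miR-30d, had counts of 13, 34 and 10 in whole cells and of 51, 4 and 6 in EV. In CPM these were 32.8, 8.52 and 7.99, and 41.6, 1.96 and 1.91, so replicate 1 was highest in both groups by a wide margin. The log2 fold change was 0.14 (SE 1.496, edgeR adjusted p = 0.976), and its sign changed with RLE scaling to -0.18. Without EV replicate 1 it was -3.04 with an edgeR adjusted p = 0.0629, so the value rests on that library.

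The ratio of the 5p to the 3p arm within a library was compared to see whether either arm of a precursor was favoured in EV. The log2 ratio was fitted with limma over 112 pairs of arms that passed the filter, of which 25% were called at an adjusted p below 0.05. Of the 5 miR-30 pairs 0 were called by limma, and 0 had an unadjusted p below 0.05, against 34.8% of all pairs. The 5p arm was the more abundant in every library for each of the 5 pairs.

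**Figure D4:**
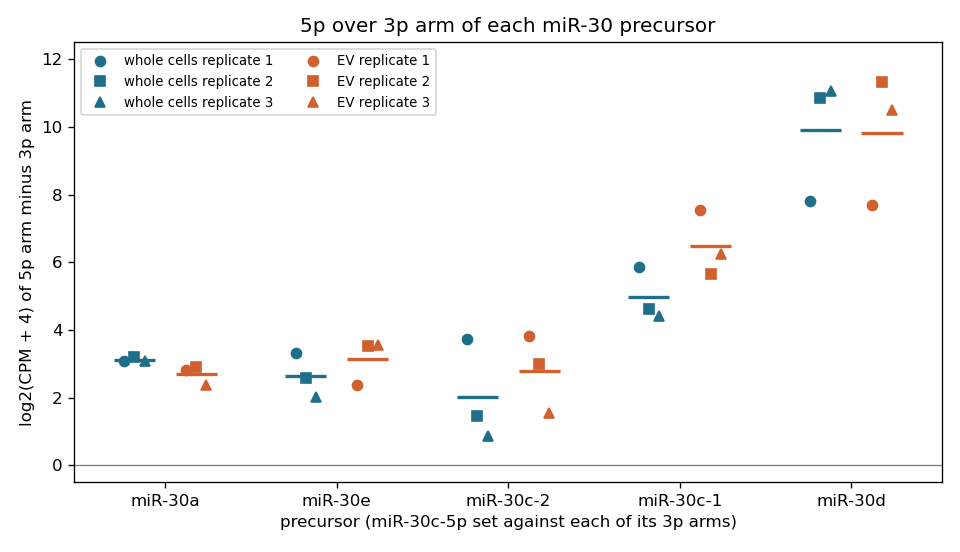
The log2(CPM + 4) of the 5p arm minus that of the 3p arm for 5 pairs, with miR-30c-5p set against each of its 3p arms. Points are libraries and lines are means of 3 libraries, whole cells in blue and EV in orange. All points lie above 0, and those of miR-30d run from 7.68 to 11.32.

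For miR-30a the counts of the 5p arm were 8.41, 9.30 and 8.40 times those of the 3p arm in whole cells and 7.06, 7.50 and 5.13 times in EV. The ratio was lower in every EV library, and the log2 ratio was 3.12 in whole cells and 2.69 in EV, a difference of -0.42 (SE 0.41, limma adjusted p = 0.463), which was -0.25 without EV replicate 3. For miR-30e the ratios were 10.2, 6.15 and 4.11 in whole cells and 5.16, 11.6 and 11.9 in EV, which overlapped, with a log2 difference of 0.51 (SE 0.81, limma adjusted p = 0.656). It was 0.85 and 0.20 without whole cell replicates 1 and 3, and 0.90, 0.32 and 0.31 without EV replicates 1, 2 and 3. For miR-30d they were 259, 2653 and 3085 in whole cells and 223, 8743 and 4239 in EV. Replicate 1 had the lowest ratio in both groups, and the log2 difference was -0.08 (SE 1.16, limma adjusted p = 0.980), with values from -1.17 without whole cell replicate 1 to 0.96 without EV replicate 1.

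miR-30c-5p counts were 11.5, 2.49 and 1.69 times those of the summed miR-30c 3p arms in whole cells and 14.2, 7.59 and 2.99 times in EV. Against miR-30c-1-3p the log2 ratio differed by 1.52 (SE 0.97, limma adjusted p = 0.292) and against miR-30c-2-3p by 0.78 (SE 1.02, limma adjusted p = 0.581). The first was 0.94 without EV replicate 1. The second was 1.64, 0.50 and 0.20 without whole cell replicates 1, 2 and 3 and 0.26 and 1.40 without EV replicates 1 and 3, so it rests on single libraries. Of the 3p arms of miR-30c, the counts of miR-30c-2-3p were 5 to 13.2 times those of miR-30c-1-3p in whole cells and 26.8 and 9.06 times in EV replicates 1 and 2.

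Count ratios between members whose precursors are neighbours in the genome differed between libraries. Where miR-30c-1-3p or miR-30c-2-3p is the divisor, opposite arms of different precursors are compared, so arm choice and precursor amount cannot be told apart. miR-30c-1-3p also rests on few counts. Whether such ratios vary more or less for neighbours than for other miRNA pairs was not tested. miR-30e-5p counts were 71.3, 17.0 and 15.2 times those of miR-30c-1-3p, both from NFYC introns, in whole cells and 562.5 and 346 times in EV replicates 1 and 2. In EV replicate 3 miR-30c-1-3p had a count of 0, and against the limit of 3 counts the ratio was at least 2090. miR-30a-5p counts were 81.2, 29.4 and 21.9 times those of miR-30c-2-3p in whole cells and 129, 163 and 70.8 times in EV, which overlapped through whole cell replicate 1. miR-30d-5p counts were 35.8, 296 and 386 times those of miR-30b-5p in whole cells and 28.8, 163 and 52.4 times in EV. In each neighbouring pair whole cell replicate 1 lay nearer to EV than whole cell replicates 2 and 3 did.

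The spread between replicates also differed between the arms. The median SD of log2(CPM + 4) over the 5p arms was 0.77 in whole cells and 0.42 in EV, whereas over all tested miRNAs it was 0.47 and 0.84. Over the 3p arms it was 0.39 in whole cells and 0.57 in EV. In whole cells miR-30d-5p had an SD of 1.08 and miR-30e-5p of 0.93, and these were the members in which whole cell replicate 1 differed most from the other whole cell libraries among the 5p arms, by -1.87 and by 1.61 on the log2 scale.

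The miRNAs whose levels followed the main 5p arms most closely were listed by Pearson's correlation of log2(CPM + 4) over the 6 libraries, which share depth and grouping, so the values are descriptions. For miR-30d-5p they were miR-3615 (r = 0.967), miR-744-5p (r = 0.959) and let-7d-3p (r = 0.952). For miR-30e-5p they were miR-369-3p (r = 0.967), miR-33a-5p (r = 0.967) and miR-376b-3p (r = 0.960), and for miR-30a-5p miR-889-5p (r = 0.989), miR-450a-2-3p (r = 0.974) and miR-27a-5p (r = 0.967). Over the same 6 libraries miR-30d-5p and miR-30e-5p had an r of -0.79 with each other, and miR-30a-5p had an r of 0.07 with miR-30d-5p and of 0.25 with miR-30e-5p. No other member was among these 9 miRNAs.

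Short letter runs known from studies of miRNA loading into vesicles were searched in the mature strands, on the strand itself only. Of the members, only the 7 with a sequence could be searched. GGAG, bound by hnRNPA2B1, was found in 2 members, miR-30c-1-3p and miR-30c-2-3p, where it overlaps the seed. It was held by 41 of the 390 tested miRNAs with a sequence, 10.5%, and by 15.7% of all mature miRNAs of the table, and of those 41 edgeR called 5 higher and 3 lower in EV, where 14.7% of all tested miRNAs were called higher and 14% lower. GGCU, bound by SYNCRIP, was found in 1 member, miR-30c-2-3p, and in 56 of the 390, 14.4%, of which 1 was called higher and 12 lower, to be read against the same 14.7% and 14%. It was held by 12.6% of all mature miRNAs of the table. These members are those whose EV libraries lay below the whole cell libraries, and their strands have 19 identical bases over 22 aligned. Over the 390, the median log2 fold change was -0.05 with GGAG and -0.33 without it. For GGCU it was -0.83 with the run and -0.17 without it. A match is a description of the letters and says nothing about binding.

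Other miRNAs known for a role in epithelial-mesenchymal transition and fibrosis were taken from a list of 20. The list was drawn up with earlier results of these data known, so its share of calls is only described. Of the 20, 17 were tested. Of these edgeR called 9 higher and 3 lower in EV, with a median log2 fold change of 2.15, against 14.7% and 14% of all tested miRNAs, while none of the miR-30 members was called. The members with the largest fitted increase were miR-141-3p, of the miR-200 family that restrains ZEB1 and ZEB2, miR-203a, an epidermal miRNA, and miR-29c-3p, which targets collagens. miR-203a rose by 4.37 (SE 0.87, edgeR adjusted p = 0.0112) and miR-29c-3p by 4.16 (SE 0.58, edgeR adjusted p = 0.00448) on the log2 scale. miR-141-3p had at most 2 counts in a whole cell library and, against 3 counts in each of these, was at least 12.0-fold higher in EV (edgeR adjusted p = 0.0403).

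Of the list, miR-145-5p, a smooth muscle miRNA, and miR-200b-3p, also of the miR-200 family, were at 0 in each EV library. Against 3 counts in each EV library they were at least 84.1-fold lower (edgeR adjusted p = 0.00834) and at least 7.92-fold lower (edgeR adjusted p = 0.0109). miR-204-5p, which is also on the Müller glia list and is known from retinal pigment epithelium, fell by 1.90 on the log2 scale (SE 0.33, edgeR adjusted p = 0.00872). No test compared this list with the miR-30 members.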

How the data were processed

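Small RNA libraries of 3 whole cell and 3 EV samples of MIO-M1 were analysed. Libraries were made by the authors with the QIAseq miRNA kit, trimmed with cutadapt and counted. The authors deposited raw counts per mature miRNA, without normalization. The table headers name featureCounts 1.5.0-p1, miRBase release 20, strand setting 1 and Bowtie 1, whereas the labels name Bowtie2. The genome build is not given in the sources used here, and the positions in the tables differ from GRCh38, so coordinates were taken from RefSeq. No removal of PCR copies is named, so intervals cover counting error only. Nothing says that replicates came from separate cultures beyond their passage, and p-values measure the spread between these samples.

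miRNAs that reached 5 CPM in 3 or more libraries were tested in edgeR 4.0.16 (R 4.3.3) with TMM factors and the quasi-likelihood test, adjusted by Benjamini-Hochberg over all 430. Arm ratios were tested in limma 3.58.1 on log2(CPM + 4). DESeq2 1.42.0 was an alternative, beside other scaling factors, no filter, thinning, a GC trend, a replicate block, left-out libraries and stricter limits. The scripts were tested on simulated data. Intervals are exact binomial at 95% (scipy 1.17.1 in Python 3.11.15), and matplotlib 3.10.9 drew the figures.

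The members and lists, and the rule for named miRNAs, were chosen with earlier results of these data known. Every member was named, with the 3 filtered miRNAs most correlated with miR-30a-5p, miR-30d-5p and miR-30e-5p, and of the epithelial-mesenchymal transition list the called miRNAs with the largest absolute log2 fold change, at most 3 in each direction. The motif searches, the mixture distances and the sequence comparison were added as descriptions.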

Additional observations from a re-analysis of the deposited data

How the results depend on the processing

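With 3 libraries a group, standard errors of the members ran from 0.29 to 1.55 (log2). miR-30c-1-3p and miR-30d-3p rest on 0 to 113 counts a library, and after thinning to the smallest total their standard errors were 1.23 and 1.48. The count of members called, 0 in edgeR, was 1 in DESeq2, 1 of the 7 members with a sequence after removal of the GC trend, and from 0 to 3 with each library left out, 3 without whole cell replicate 1. It stayed 0 under RLE factors, library totals, upper-quartile factors, no filter, thinning, the replicate block and the stricter limits. miR-30a-5p changed sign to -0.0071 in DESeq2, -0.0072 with RLE factors and -0.024 without a filter, and ranged from -0.032 to 0.33 with a library left out. miR-30d-3p changed sign to -0.18 in DESeq2, -0.18 with RLE factors, -0.10 with library totals, -0.11 with upper-quartile factors and -0.28 without a filter, and ranged from -3.04 to 0.71 with a library left out. The log2 arm ratio of miR-30d changed sign to 0.35 with a pseudocount of 1, and ranged from -1.17 to 0.96 with a library left out. The share of miR-30c-5p in the 5p arms, EV minus whole cells, went from -1.04 to 0.81 percentage points without whole cell replicate 1. The causes were not tested. Of the members' values under alternatives, 119 kept their direction and side of the threshold, 13 changed sign and 5 passed the threshold. For the arm pairs 39 kept both and 4 changed sign.

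Correlations of the residuals between same-numbered libraries, 0.0204, 0.0395 and -0.0172, were all under 0.1, and pairing was therefore not assumed. With the replicate block edgeR called 56 of the 430 miRNAs in place of 123 and 0 of the 10 members, and the fold change of miR-30d-3p was -1.30. Over all miRNAs, edgeR called 240 without a filter, 74 without whole cell replicate 2 and 81 without whole cell replicate 3, and the stricter limits gave 25 in edgeR and 72 in DESeq2. With a pseudocount of 1 the miRNAs most like miR-30a-5p ranked 11, 17 and 19, with r = 0.867 for miR-27a-5p.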
